A study of Rattus norvegicus with 12 samples.

Results

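The sirtuins are 7 enzymes, Sirt1 to Sirt7, that remove acyl groups from the lysines of other proteins and use up NAD+ in doing so. Their transcripts were followed in the dorsal striatum of parkinsonian rats. The members were the 7 genes whose symbol, with or without the suffix that marks a predicted gene model, named a probe of the Agilent rat array. Each of them had 1 probe with 1 spot, so 7 of the 35608 genes on the array are described, and all 7 were among the 20462 genes bright enough to be tested. The family was proposed because the signal of Sirt5 was lower in every treated group. The comparisons of Sirt5 between the groups are therefore given as a description, with no test.

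RNA from 12 male rats was hybridised to 12 single-colour arrays, in 4 groups of 3. All rats, the reference group included, had lost the dopamine input to the striatum on the left side through 9 µg of the toxin 6-OHDA injected in the substantia nigra, so no intact striatum is part of these arrays. The 6-OHDA group received nothing more. The HFS group had an electrode in the subthalamic nucleus on the lesioned side and received current through it up to the end of the experiment (5 days, a rate of 130 Hz, a pulse width of 80 µs and an intensity of 60 µA). The DOPA group was injected repeatedly each day over 19 days. Each injection held L-DOPA (25 mg/kg), which replaces dopamine, and benserazide (12.5 mg/kg), which blocks its breakdown outside the brain. This course provokes dyskinesia, and the rats were killed hours after the last injection. The DOPA/HFS group received both, with the stimulation over the last 5 days. Per the methods, neither the 6-OHDA nor the DOPA group carried an electrode, so implantation and stimulation cannot be told apart. Age and strain are not given in the sources used here.

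The replicate number of an array is the number of its slide, and each of the 3 slides held 1 array of each group. As each group also had a fixed place on the slides, place and treatment cannot be told apart. Between 50.5% and 63.2% of the spots of an array were well above background. DOPA/HFS 3 stood apart with 4175 outlier spots, against 2 to 25 per array elsewhere, and outlier spots were not used. All 10 markers of striatal projection neurons and all 9 of oligodendrocytes were well above background on all 12 arrays.

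Sirtuins are sorted by where they work. Sirt1, Sirt6 and Sirt7 are mainly nuclear, Sirt2 is mainly cytoplasmic, and Sirt3, Sirt4 and Sirt5 are imported into mitochondria. Sirt3 is the main mitochondrial deacetylase, Sirt4 restrains glutamate dehydrogenase, and Sirt5 removes the acidic succinyl, malonyl and glutaryl groups from metabolic enzymes. In the brain Sirt1 is known for deacetylating transcription factors in neurons, and Sirt2, a tubulin deacetylase, for its abundance in oligodendrocytes.

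Sirt5 was the member whose signal varied most over the arrays. Between its lowest and highest array the signal spanned 2.07 on the log2 scale, against spans of 0.46 (Sirt3) to 1.02 (Sirt7) for the other 6. The log2 signal of Sirt5, after quantile normalization between arrays, was 11.69, 12.51 and 11.58 on 6-OHDA replicates 1 to 3. On the HFS arrays it was 10.75, 11.04 and 10.44. On the DOPA arrays it was 10.71, 11.00 and 10.57, and on the DOPA/HFS arrays 10.62, 10.81 and 11.56. All 9 treated arrays thus lay below the 3 arrays of untreated lesioned rats, with DOPA/HFS 3 just under the lowest of them. An array pattern of this kind, all treated arrays below every 6-OHDA array, was shown by 0.181% of the genes tested (37 genes), and the reverse pattern by 0.132%. Sirt5 was looked at for this pattern, so nothing is read from its rarity.

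**Figure D1:**
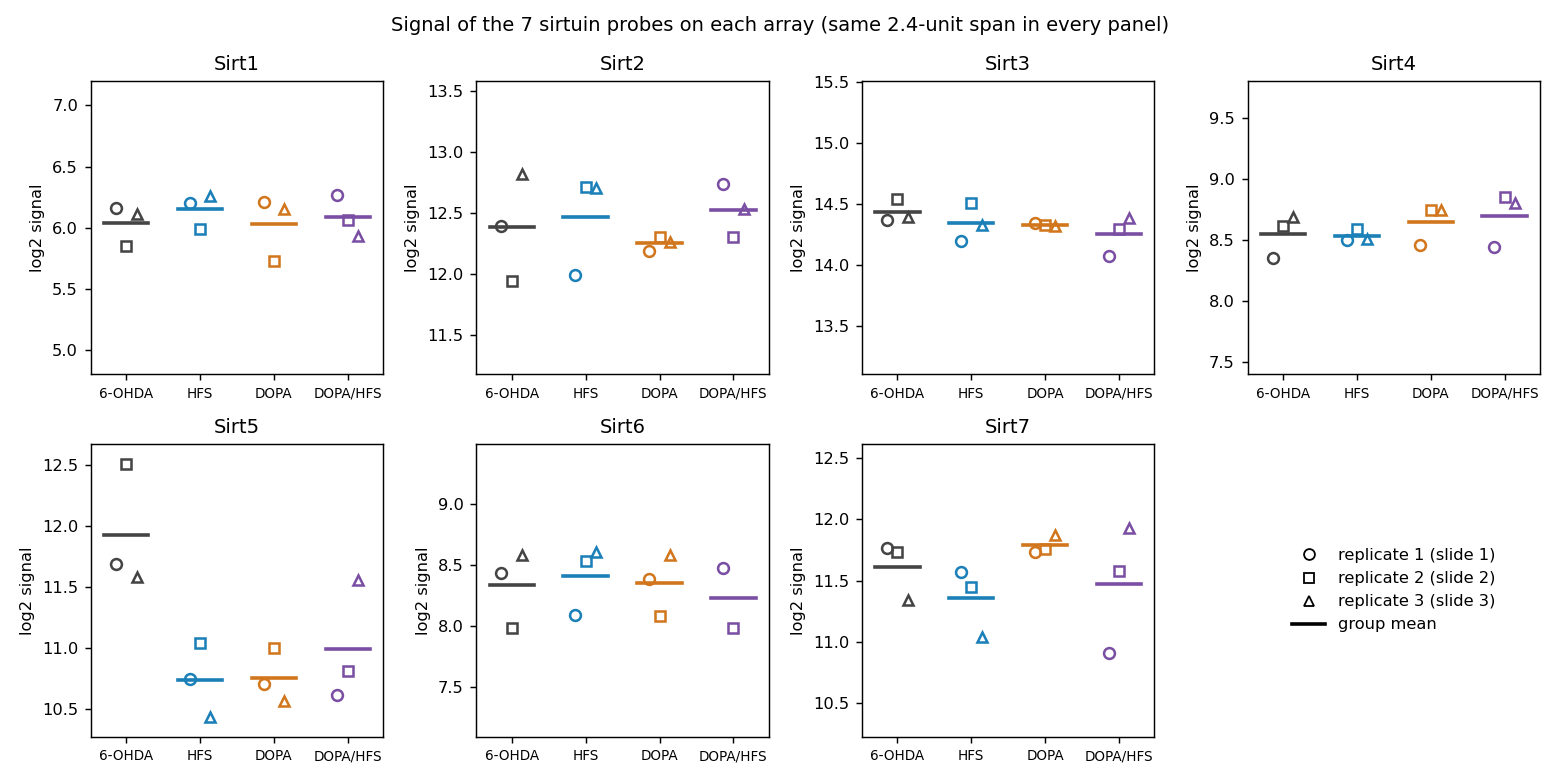
The log2 signal of each sirtuin probe (vertical axis, the same span in every panel) is plotted for the 3 arrays of each group, with the symbol giving the replicate, which is also the slide, and the bar the group mean. The 9 treated arrays of Sirt5 lie between 10.44 and 11.56 and its 6-OHDA arrays between 11.58 and 12.51, while the groups of the other 6 sirtuins largely overlap. Sirt6 has no point for DOPA/HFS 3, whose spot was an outlier. Levels of different probes cannot be compared.

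In group means, Sirt5 stood at 11.93 ± 0.51 (SD, n = 3) in 6-OHDA, 11.00 ± 0.50 in DOPA/HFS, 10.76 ± 0.22 in DOPA and 10.74 ± 0.30 in HFS. The difference from 6-OHDA in log2 signal was -1.18 for HFS, -1.17 for DOPA and -0.93 for the combination, and the limma fit of all arrays gave each a standard error of 0.30. As folds these are 0.440, 0.445 and 0.524. A fold of 0.5 or under was reached by 0.332% of the genes tested for HFS, 0.591% for DOPA and 0.728% for DOPA/HFS. Sirt5 was among them for HFS and DOPA but not for DOPA/HFS. The 3 comparisons use the same 6-OHDA arrays and are not independent of each other.

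The size of the difference rested in part on single arrays. Without 6-OHDA 2, the brightest array for Sirt5, the differences were -0.89 for HFS, -0.88 for DOPA and -0.64 for DOPA/HFS. Without DOPA/HFS 3, the array with many outlier spots, the DOPA/HFS difference was -1.21. Within slides 1, 2 and 3, Sirt5 differed from the 6-OHDA array of the same slide by -0.95, -1.47 and -1.14 in HFS and by -0.98, -1.51 and -1.01 in DOPA. In DOPA/HFS the values within slides were -1.07, -1.70 and -0.02. HFS and DOPA were therefore lower on every slide, and DOPA/HFS by a like amount on slides 1 and 2 and by next to nothing on slide 3.

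Other ways to scale the arrays left the Sirt5 difference in place. In the log2 table that the authors deposited, the differences were -1.14 for HFS, -1.18 for DOPA and -1.04 for DOPA/HFS, and DOPA/HFS 3 (11.34) lay further below the lowest 6-OHDA array (11.69). With the signal of Hprt1, the reference gene of the methods, subtracted on each array they were -1.16, -1.17 and -0.84. When each array was centred on its 75th percentile, 8 of the 9 treated arrays lay below all 6-OHDA arrays, since DOPA/HFS 3 (11.59) then passed the lowest of them (11.54). On the linear scale of the scanner, before any scaling between arrays, the Sirt5 spot read 3370, 3940 and 4190 on the 6-OHDA arrays. It read 1540 to 2450 on the HFS arrays, 1230 to 1780 on the DOPA arrays, and 1650, 1860 and 3440 on the DOPA/HFS arrays.

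The treated groups were also compared with each other. As the gene was chosen for being low in all 3 of them, these values are a description too, with no test. Sirt5 was higher by 0.02 in DOPA than in HFS (95% interval -0.64 to 0.67). DOPA/HFS differed from DOPA by 0.24 (-0.42 to 0.89) and from HFS by 0.25 (-0.40 to 0.91). The arrays of the 3 treated groups overlapped in every pair. Intervals this wide leave room for differences of more than 1.5-fold between treatments, so these data do not show that the treatments left Sirt5 at the same level. Without DOPA/HFS 3 the differences of DOPA/HFS from DOPA and HFS turned to -0.04 and -0.03. HFS was 1.18 below 6-OHDA without L-DOPA and 0.24 above DOPA with it, a difference between both effects of 1.42 (standard error 0.42), which again holds the 6-OHDA arrays and is given as a description.

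**Figure D2:**
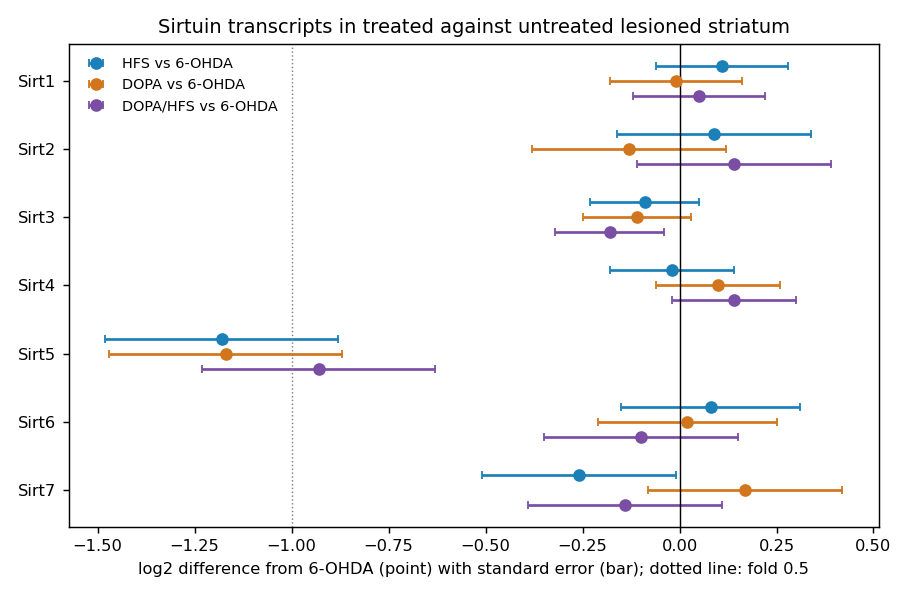
Points give the log2 difference of each sirtuin from 6-OHDA in HFS, DOPA and DOPA/HFS (3 arrays against 3, but 2 for Sirt6 in DOPA/HFS), and bars the standard error of the limma fit. Sirt5 lies between -1.18 and -0.93, near the dotted line at a fold of 0.5, and the other 6 sirtuins lie between -0.26 and 0.17.

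The promoter of Sirt5 is shown beside that of Sirt3, another mitochondrial member, whose pattern over the arrays was the closest to it within the family, so that both can be read side by side. Both are 300 bases of RefSeq sequence (rat assembly GRCr8), from 250 bases before to 50 after the start that the sequence table uses for the gene, written 5′ to 3′ on the strand of the gene. Sirt5 (protein coding, chr17:21515982-21543529) has its window at chr17:21543007-21543306 on the minus strand, and Sirt3 (protein coding, chr1:205371703-205394145) at chr1:205393552-205393851 on the minus strand. Both windows lie inside the span of their gene, so this start is not the outermost one annotated. Capitals mark CCAAT boxes (CCAAT, or ATTGG on the other strand) and GC boxes (GGGCGG).
Sirt5: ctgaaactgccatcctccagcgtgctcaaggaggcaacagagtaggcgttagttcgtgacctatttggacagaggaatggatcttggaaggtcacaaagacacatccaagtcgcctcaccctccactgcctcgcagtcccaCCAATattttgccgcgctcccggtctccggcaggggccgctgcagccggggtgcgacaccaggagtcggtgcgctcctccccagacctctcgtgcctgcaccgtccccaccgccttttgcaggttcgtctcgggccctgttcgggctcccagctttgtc
Sirt3: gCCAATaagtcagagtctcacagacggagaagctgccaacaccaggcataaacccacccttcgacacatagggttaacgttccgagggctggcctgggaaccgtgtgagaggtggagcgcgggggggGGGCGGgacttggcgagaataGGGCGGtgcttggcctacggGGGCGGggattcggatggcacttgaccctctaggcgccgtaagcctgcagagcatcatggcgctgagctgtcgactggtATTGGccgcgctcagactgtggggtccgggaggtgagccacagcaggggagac
The search covered both strands. Beside these boxes it looked for the cAMP response element, spelled TGACGTCA, and for the site of the immediate early factor AP-1, spelled TGANTCA with any base at N. The TATA box (TATAAA) and the E-box of clock and Myc factors (CACGTG) were searched as well, neither was found in the windows of Sirt5 and Sirt3, and no matches overlapped. Sirt5 held 1 CCAAT box, at base 142 of the window, and no GC box. Sirt3 held 2 CCAAT boxes and 3 GC boxes. Of 33469 promoters of the same length, 37.5% held a CCAAT box, 33.1% a GC box, 14.2% a TATA box, 6.42% the E-box, 1.83% a cAMP response element and 7.33% an AP-1 site, and the windows of the 6 sirtuins with an entry held neither of the last pair. The GC content was 61.7% for Sirt5 and 63.3% for Sirt3 (median of all promoters 51.7%), and each had 20 CG pairs against a median of 7. These matches describe letters only and say nothing of a factor.

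Of the other mitochondrial members, Sirt3 read 14.37, 14.54 and 14.40 on the 6-OHDA arrays, 14.20, 14.51 and 14.33 on HFS, 14.35, 14.33 and 14.32 on DOPA, and 14.08, 14.30 and 14.39 on DOPA/HFS. All 3 DOPA arrays lay below all 6-OHDA arrays, by little, as did 3.11% of all genes tested, and the other groups overlapped. The differences from 6-OHDA were -0.09 in HFS (95% interval -0.39 to 0.21), -0.11 in DOPA (-0.41 to 0.19) and -0.18 in DOPA/HFS (-0.48 to 0.12), with limma adjusted p-values of 0.998, 1 and 1. Sirt4 read 8.35, 8.61 and 8.69 on 6-OHDA, 8.50, 8.59 and 8.51 on HFS, 8.46, 8.74 and 8.74 on DOPA, and 8.44, 8.85 and 8.80 on DOPA/HFS. Here every pair of groups overlapped. Its differences from 6-OHDA were -0.02 (-0.37 to 0.33), 0.10 (-0.25 to 0.45) and 0.14 (-0.20 to 0.49). Neither of these mitochondrial sirtuins passed the test.

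The nuclear members gave the same outcome. Sirt1, which deacetylates transcription regulators such as PGC-1α, was well above background on 11 of 12 arrays, the exception being DOPA 3. It read 6.16, 5.85 and 6.11 on 6-OHDA, 6.20, 5.99 and 6.26 on HFS, 6.21, 5.73 and 6.15 on DOPA, and 6.27, 6.06 and 5.93 on DOPA/HFS. Its differences from 6-OHDA were 0.11, -0.01 and 0.05, each with a standard error of 0.17.

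Sirt6, which acts on chromatin in DNA repair, read 8.43, 7.98 and 8.58 on 6-OHDA, 8.09, 8.53 and 8.60 on HFS, 8.38, 8.08 and 8.58 on DOPA, and 8.47 and 7.98 on DOPA/HFS 1 and 2. The groups overlapped, and the differences from 6-OHDA were 0.08, 0.02 and -0.10, with standard errors of 0.23, 0.23 and 0.25. The Sirt6 spot of DOPA/HFS 3 was an outlier and was dropped, so that group had n = 2. With outlier spots kept, the DOPA/HFS difference of Sirt6 turned from -0.10 to 0.87, still without passing the test.

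Sirt7, a nucleolar enzyme tied to ribosomal RNA genes, read 11.77, 11.73 and 11.34 on 6-OHDA, 11.57, 11.45 and 11.04 on HFS, 11.73, 11.76 and 11.87 on DOPA, and 10.91, 11.58 and 11.93 on DOPA/HFS. DOPA/HFS spread most, with its lowest and highest array being the extremes of all 12. The differences from 6-OHDA were -0.26 (95% interval -0.80 to 0.29) in HFS, 0.17 (-0.37 to 0.72) in DOPA and -0.14 (-0.69 to 0.40) in DOPA/HFS. Between treatments, all 3 DOPA arrays of Sirt7 lay above all 3 HFS arrays, as they did for 6.62% of the genes tested. The difference of 0.43 (-0.11 to 0.98) had an adjusted p of 0.984 in limma and did not pass. The mean level of the oligodendrocyte markers separated the same arrays in the opposite direction, with 13.00 to 13.09 on DOPA and 13.17 to 13.39 on HFS, and all 9 markers tested were lower in DOPA (median -0.23), where 52.1% of all genes tested were lower. Their part in the Sirt7 difference was not tested.

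The cytoplasmic member, Sirt2, read 12.39, 11.94 and 12.82 on 6-OHDA, 11.99, 12.71 and 12.70 on HFS, 12.19, 12.30 and 12.26 on DOPA, and 12.74, 12.30 and 12.53 on DOPA/HFS. The 6-OHDA arrays spanned all others. The differences from 6-OHDA were 0.09 (-0.46 to 0.64), -0.13 (-0.68 to 0.42) and 0.14 (-0.41 to 0.69).

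Counted together, 0 of the 6 sirtuins other than Sirt5 were called at an adjusted p under 0.1 with a fold over 1.2 or under 0.8 in any comparison. Few genes were called at all. The share of the genes tested was 0% in HFS vs 6-OHDA, in DOPA/HFS against each other group and for the difference between both HFS effects, and 0.00489% in DOPA vs 6-OHDA and 0.00489% in DOPA vs HFS, which was 1 gene, Igsf5, in both. Without DOPA/HFS 1 those last 2 counts rose to 13 and 23, and the count for these 6 sirtuins stayed at 0. At an unadjusted p under 0.05, limma passed 479 genes (2.34%) in HFS vs 6-OHDA, 530 (2.59%) in DOPA vs 6-OHDA and 565 (2.76%) in DOPA/HFS vs 6-OHDA. The share was 3.79% in DOPA/HFS vs DOPA, 2.43% in DOPA/HFS vs HFS, 4.61% in DOPA vs HFS and 1.98% for the difference between both HFS effects. None of the 6 sirtuins other than Sirt5 was among these genes, the lowest unadjusted p over all their comparisons being 0.108. For these 6, the 18 differences from 6-OHDA ran from -0.26 to 0.17, and the 95% intervals, as folds, from 0.573 at the lowest to 1.64 at the highest. A fold of 0.5 thus lay outside every one of those 18 intervals. Changes inside the interval of a given gene and comparison were not excluded with at most 3 arrays per group. Over the 36 comparisons of pairs of groups for these 6 genes, 2 did not overlap, those of Sirt3 and Sirt7 given above.

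Across the 12 arrays, the sirtuins did not move as a block. Of all pairs, Sirt2 with Sirt6 gave the highest Pearson correlation (r = 0.738 over 11 arrays), followed by Sirt3 with Sirt5 (r = 0.666 over 12). Sirt2 with Sirt7 gave the lowest (r = -0.62). All values share their arrays and their scaling, so these are descriptions with no test.

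Among the 5 genes whose pattern was most like that of Sirt5 over the 12 arrays, of 18350 genes with a value on each, were Eif2b5 (r = 0.898), a probe without a gene symbol, A_44_P862144 (r = 0.890), Cited1 (r = 0.886) and RGD1308066 (r = 0.882). Eif2b5 is a subunit of the exchange factor that recharges the translation initiator eIF2. Eif2b5 read 10.10, 10.44 and 10.21 on the 6-OHDA arrays and between 9.96 and 10.23 on the treated arrays, so its range was far narrower than that of Sirt5. RGD1308066 came closer in size. It read 11.72, 11.76 and 11.45 on 6-OHDA and between 10.68 and 11.37 on the treated arrays, with differences of -0.63 for HFS, -0.84 for DOPA and -0.55 for DOPA/HFS. These genes were picked for their likeness, which includes the same contrast, and no test is given. The 2 annotated genes on each side of Sirt5 in GRCr8 (Ranbp9, Nol7, Gfod1 and LOC120097840) were not among the genes tested.

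**Figure D3:**
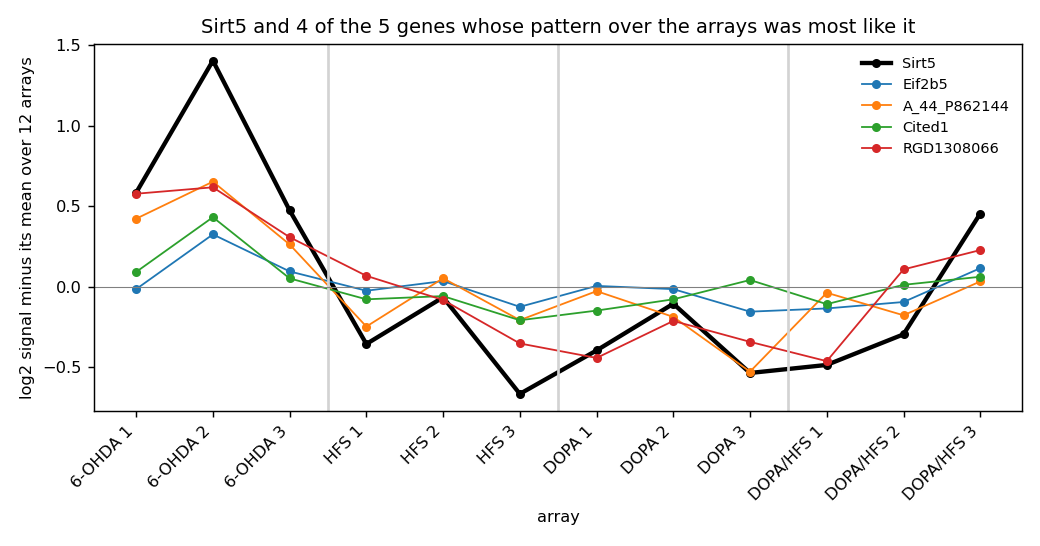
The log2 signal minus its mean over the 12 arrays (vertical axis) is drawn for Sirt5 (black) and for 4 of the 5 genes most like it, over the arrays in order of group and replicate. All 5 lines stand highest on 6-OHDA 2, and Sirt5 spans 2.07 in all.

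Sirtuins depend on the supply of NAD+. Of 17 listed genes for its synthesis or regeneration, 9 were tested, and 0 were called in any comparison. Their median log2 differences from 6-OHDA were 0 for HFS, -0.05 for DOPA and -0.01 for DOPA/HFS (all genes tested: 0.01, -0.01 and -0.01). They ranged from -0.27 for Nmnat2, the neuronal enzyme that joins nicotinamide mononucleotide to make NAD+, in DOPA/HFS to 0.16 for Nampt, the rate-limiting salvage enzyme, in DOPA. None had an unadjusted p under 0.05 against 6-OHDA.

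Of 8 genes listed for the consumption of NAD+, of NADH or, for Nnmt, of nicotinamide, 7 were tested and 0 were called. The medians were 0.17, 0.07 and 0.16. More of them were higher than lower, 6 of 7 in HFS and 5 of 7 in DOPA and in DOPA/HFS, where 48.4%, 52.3% and 52.3% of all genes tested were lower. Nudt12, which cleaves NADH, read 4.34, 3.49 and 4.65 on the 6-OHDA arrays and 4.69, 5.36 and 5.46 on the DOPA arrays. It was well above background on 0 of 3 of the 6-OHDA arrays and on 1 of 3 of the DOPA arrays, so no fold is given for it. The medians and counts above still include Nudt12, as higher in HFS, DOPA and DOPA/HFS. Cd38, a major NAD+ glycohydrolase, differed by -0.70 in DOPA/HFS and the poly(ADP-ribose) polymerase Parp3 by 0.53, both with an adjusted p of 1.

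Of 15 listed mitochondrial and metabolic substrates of Sirt3, Sirt4 and Sirt5, 13 were tested and 0 were called, and the medians were 0.01, -0.06 and -0.04. Cps1, the urea cycle enzyme best known as a Sirt5 target, and Uox, urate oxidase, were not bright enough to be tested. Glud1, the glutamate dehydrogenase that Sirt4 acts on, differed by -0.07, 0.10 and -0.05 from 6-OHDA in HFS, DOPA and DOPA/HFS. Idh2, activated by Sirt3 and Sirt5, differed by 0.01, -0.19 and -0.19, and Sdha, a target of both, by -0.08, -0.08 and -0.10.

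**Figure D4:**
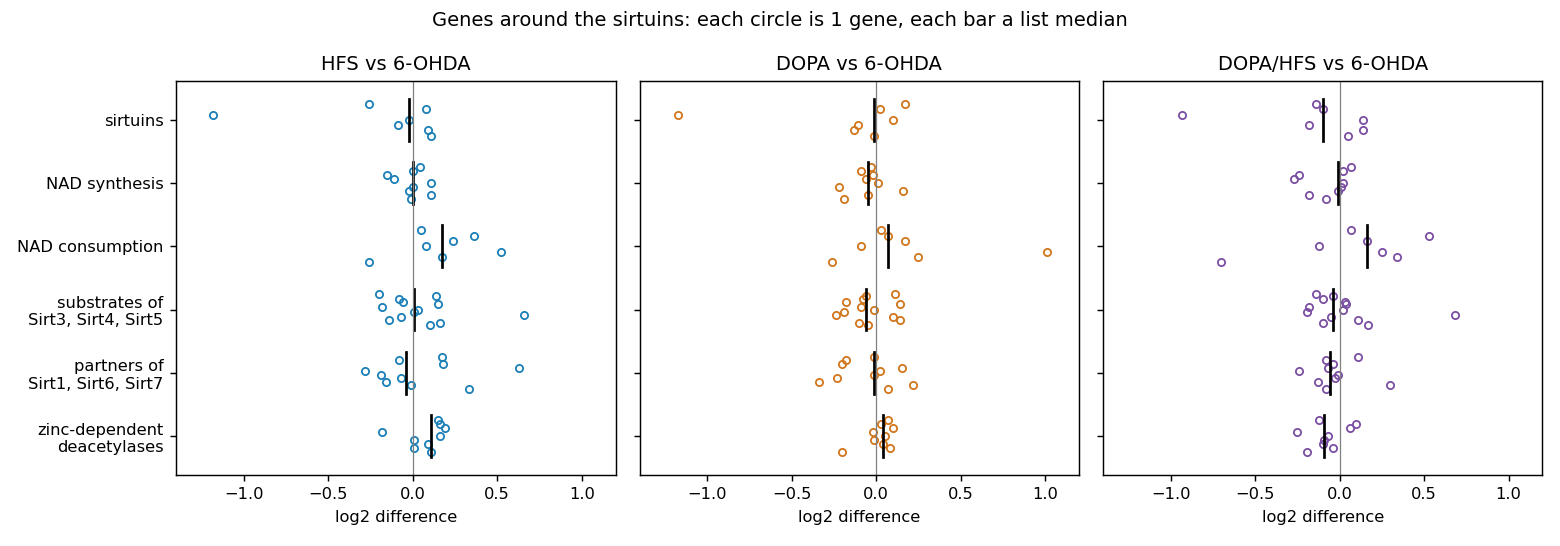
Each circle is the log2 difference of 1 gene from 6-OHDA (horizontal axis, the same in the 3 panels), grouped by list, and each vertical bar the median of the list. The list medians lie between -0.10 and 0.17, and the circle furthest to the left in each panel is Sirt5. The circle furthest to the right in the DOPA panel is Nudt12, which was not well above background on the 6-OHDA arrays. Sirt5 is shown as a description, and none of the other genes was called.

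Of 16 nuclear partners and substrates of Sirt1, Sirt6 and Sirt7, 10 were tested and 0 were called, with medians of -0.04, -0.01 and -0.06. Ppargc1a, the coactivator PGC-1α that Sirt1 deacetylates, read 5.66, 5.29 and 6.46 on 6-OHDA and 6.35, 6.11 and 6.83 on HFS, which overlapped. It was higher by 0.63 in HFS (standard error 0.29, adjusted p = 0.998 in limma) and differed by -0.07 in DOPA/HFS. The inhibitor of Sirt1, Ccar2 (RGD1305719 in the files), differed by -0.01, 0.22 and 0.30.

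The zinc-dependent histone deacetylases, which remove acetyl groups without NAD+, were used as a comparison family. Of 11 listed, 9 were tested and 0 were called. Their medians were 0.11 for HFS, 0.04 for DOPA and -0.09 for DOPA/HFS, and their differences from 6-OHDA ran from -0.25 (Hdac4, in DOPA/HFS) to 0.19 (Hdac5, in HFS). The range was thus as narrow as that of the 6 sirtuins other than Sirt5. All 9 were lower in DOPA/HFS than in HFS, by 0.05 to 0.30 on the log2 scale, where 53.8% of all genes tested were lower.

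Sirt2 and Sirt7 moved with the oligodendrocyte marker level. That level was the mean log2 signal of 8 markers with a value on every array (among them Cldn11, Cnp, Ermn, Mag, Mobp, Mog and Opalin), and it ran from 13.00 to 13.44. Sirt2 rose with it (Pearson r = 0.769, permutation p = 0.00421, adjusted p = 0.0147; Spearman rho = 0.713, permutation p = 0.0116, adjusted p = 0.0407) and Sirt7 fell (r = -0.791, permutation p = 0.00323, adjusted p = 0.0147; rho = -0.727, permutation p = 0.01, adjusted p = 0.0407), over 12 arrays and with adjustment over the 7 sirtuins. Without the 2 arrays farthest from the median level, 6-OHDA 3 and HFS 3, r was 0.630 for Sirt2 and -0.741 for Sirt7. With the mean of each group removed it was 0.866 and -0.756, and with the mean of each slide removed 0.746 and -0.848, a slide of 4 arrays being too small for a value of its own. The other 5 sirtuins gave no relation that passed, with adjusted p-values of r between 0.23 and 0.928 by permutation. These correlations were not among the planned tests. The permutations shuffled all 12 arrays without regard to group or slide, and the adjustment does not cover the choice of the marker list, so the p-values are descriptive. Correlations of the sirtuins with the other marker lists were not computed, so the relation is not shown to be particular to oligodendrocytes. The striatal projection neuron level was highest on 6-OHDA 3 (14.04) and DOPA/HFS 1 (13.97), where Sirt2 was highest too (12.82 and 12.74). On 6-OHDA 2 and HFS 1, where Sirt2 was lowest (11.94 and 11.99), the neuron level was low as well (13.68 on both). It was about as low on DOPA/HFS 2 (13.65), DOPA 3 (13.67) and DOPA/HFS 3 (13.70), where Sirt2 read 12.30, 12.26 and 12.53. The highest and lowest Sirt2 arrays thus had a high and a low neuron level too, though not every array followed. The relation to this level was not tested.

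This relation depended on the scaling. With each array centred on its 75th percentile, r dropped to 0.274 for Sirt2 and -0.403 for Sirt7 (adjusted p = 0.87 for both by permutation), and in the deposited table Sirt2 gave 0.739 (adjusted p = 0.0427) and Sirt7 -0.667 (adjusted p = 0.0622). Without 6-OHDA 3, the adjusted p of Sirt2 was 0.0629. An r as high as that of Sirt2 was shown by 2.39% of 18343 genes outside the marker list, and one as low as that of Sirt7 by 2.81%. In bulk tissue, fewer cells of a type and less RNA per cell cannot be told apart.

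**Figure D5:**
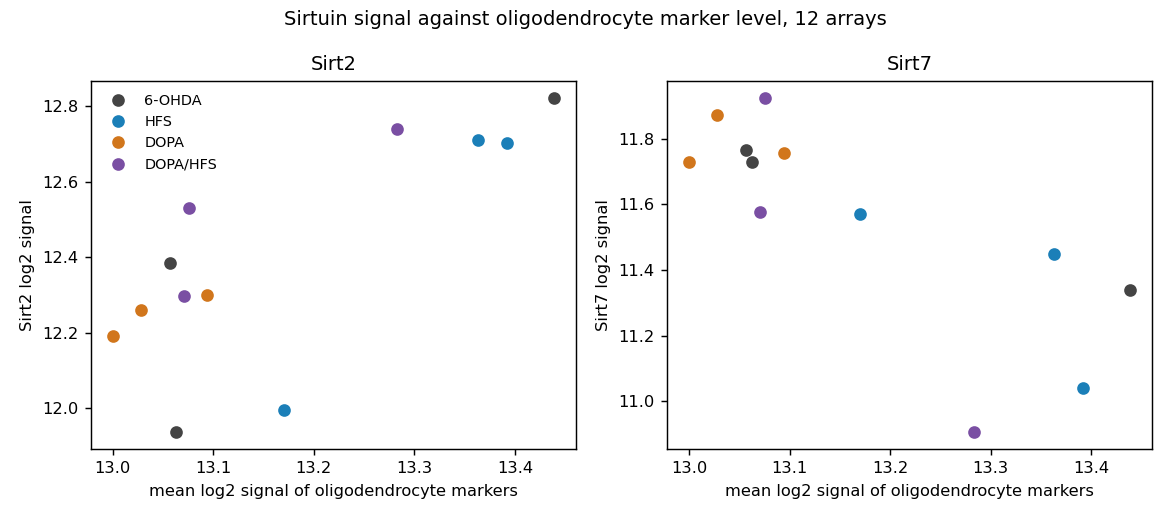
The log2 signal of Sirt2 (left) and Sirt7 (right) is plotted against the mean log2 signal of 8 oligodendrocyte markers for the 12 arrays, coloured by group. Sirt2 rises (r = 0.769) and Sirt7 falls (r = -0.791) over a marker range of 13.00 to 13.44, and the HFS arrays (13.17 to 13.39) stand to the right of the DOPA arrays (13.00 to 13.09).

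Markers of other cell types are given beside the Sirt5 difference. The mean level of the choroid plexus list (4 genes with a value on every array, 6 of 8 on the array tested) was 5.27 to 5.94 on 6-OHDA, 8.18 to 11.70 on HFS, 4.82 to 9.80 on DOPA and 5.02 to 6.79 on DOPA/HFS, and all 6 tested genes were higher in HFS at an unadjusted p under 0.05, as were 1.21% of all genes tested, with none called. On HFS 1 to 3 the choroid plexus level was 11.70, 8.18 and 11.17, and Sirt5 read 10.75, 11.04 and 10.44. On DOPA 1 to 3 the level was 4.82, 6.53 and 9.80, and Sirt5 read 10.71, 11.00 and 10.57. On DOPA/HFS 1 to 3 the level was 6.79, 6.74 and 5.02, and Sirt5 read 10.62, 10.81 and 11.56. The microglia list (7 genes with all values) stood at 10.01, 9.21 and 10.15 on 6-OHDA and at 9.81 to 10.21 on the HFS, DOPA and DOPA/HFS arrays, so that 6-OHDA 2, the brightest array for Sirt5, stood apart and the other two lay in the range of the treated arrays. The lists of striatal projection neurons (13.65 to 14.04) and astrocytes (11.38 to 11.64) overlapped between the groups. The part of any of these lists in the Sirt5 difference was not tested.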

How the data were processed

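Striatal RNA of 12 rats was measured on 12 single-colour Agilent arrays. Per the submitters' processing notes, spots were quantified with Agilent Feature Extraction 9.1. The intensity values are the background-corrected processed signals of the scanner files that the authors deposited, on a linear scale and not scaled between arrays. The authors also deposited a table of log2 values, quantile normalized between arrays per the methods, which served as an alternative. Groups and replicate numbers came from the sample labels. Labels name separate samples and the methods separate animals.

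Control and outlier spots were left out, intensities were taken to log2 with no pseudocount and quantile normalized, and a probe had to be well above background in 0.4 or more of the arrays, the brightest probe standing for its gene. The 41012 probes kept the names in the files, except 10735 named by accession through the RefSeq table of GRCr8. The tests were limma 3.58.1 (lmFit and eBayes, R 4.3.3, with data.table, version 1.17.8, and jsonlite 2.0.0) over all 12 arrays, with Benjamini-Hochberg adjustment over all genes. limma stood for the SAM of the methods, checked first on simulated data. The simulated noise was independent between arrays, and calls were required only at the largest effect. That check therefore does not give the power for differences of the size reported here, or the error rate with slide effects. Calls needed an adjusted p below 0.1 together with a fold above 1.2 or below 0.8, the fold limits of the methods. Correlations used 100000 permutations. Figures were drawn with Python 3.11.15 (numpy 2.4.6, pandas 2.3.3, matplotlib 3.10.9). The number of arrays limits the precision.

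The members and lists were chosen with earlier results of these data known. The genes named were the sirtuins, genes of the lists, 4 of the 5 genes most like Sirt5, its neighbours and called genes. A few genes of these lists are not reported singly here, but count in the totals of their lists. The alternatives were 75th percentile scaling, normexp with an offset of 50, the deposited table, outlier spots kept, 2 other filters, the mean of all probes, the slide as a block, fits without the other groups, a stricter adjusted p of 0.05, no fold limit, Hprt1 subtracted and each array left out. The correlations with the oligodendrocyte level were not among the planned tests, and their alternatives were chosen after seeing the data.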

Additional observations from a re-analysis of the deposited data

How the results depend on the processing

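Of the sirtuins other than Sirt5, 0 were called in any comparison under all 24 settings (22 for the difference between both HFS effects). Their lowest adjusted p in limma over the settings that kept all arrays was 0.662 (Sirt7). The difference of Sirt5 from 6-OHDA was below 0 in HFS, DOPA and DOPA/HFS under every setting. As single arrays were left out, it ran from -1.36 to -0.89, from -1.34 to -0.88 and from -1.21 to -0.64, with the ends reached without 6-OHDA 3 or 6-OHDA 2 and, for the lowest DOPA/HFS value, without DOPA/HFS 3. The signs that turned belong to small differences, with the exception of Sirt6 with outlier spots kept. The cause was not tested. With 75th percentile scaling, in DOPA vs 6-OHDA Sirt6 became 0, in DOPA vs HFS Sirt3 became 0.08. With normexp, in DOPA/HFS vs HFS Sirt1 became 0.02, in DOPA vs HFS Sirt5 became -0.04, in the HFS effect with against without L-DOPA Sirt1 became 0.04 and Sirt3 -0.03. In the deposited log2 table, in DOPA/HFS vs 6-OHDA Sirt1 became -0.05 and Sirt4 -0.06, in DOPA/HFS vs DOPA Sirt1 became -0.04 and Sirt4 -0.14, in DOPA/HFS vs HFS Sirt4 became -0.01 and Sirt7 -0.04, in DOPA vs HFS Sirt5 became -0.04, in the HFS effect with against without L-DOPA Sirt3 became -0.09 and Sirt4 -0.08. With outlier spots kept, in DOPA/HFS vs 6-OHDA Sirt1 became -0.16, Sirt4 -0.05 and Sirt6 0.87, in DOPA/HFS vs DOPA Sirt1 became -0.15, Sirt4 -0.15 and Sirt6 0.86, in DOPA/HFS vs HFS Sirt2 became -0.02, Sirt4 -0.03 and Sirt6 0.79, in the HFS effect with against without L-DOPA Sirt3 became -0.05, Sirt4 -0.13 and Sirt6 0.78. With Hprt1 subtracted, in DOPA/HFS vs DOPA Sirt3 became 0.01, in DOPA/HFS vs HFS Sirt1 became 0, in DOPA vs HFS Sirt5 became 0, in the HFS effect with against without L-DOPA Sirt1 became 0.01 and Sirt7 0.01. With the replicate block, in DOPA/HFS vs 6-OHDA Sirt6 became 0.01. Leaving out single arrays turned the sign of small differences, whose ranges follow. In DOPA vs 6-OHDA, they were -0.10 to 0.14 for Sirt1, 0 to 0.19 for Sirt4, -0.16 to 0.15 for Sirt6 and -0.35 to 0.09 for Sirt2. In HFS vs 6-OHDA, they were -0.13 to 0.33 for Sirt2, -0.12 to 0.05 for Sirt4 and -0.10 to 0.23 for Sirt6. In DOPA/HFS vs 6-OHDA, they were -0.05 to 0.13 for Sirt1, -0.08 to 0.36 for Sirt2, -0.35 to 0.14 for Sirt6 and -0.37 to 0.14 for Sirt7. In the HFS effect with against without L-DOPA, they were -0.20 to 0.04 for Sirt1, -0.05 to 0.11 for Sirt3, -0.05 to 0.40 for Sirt2, -0.02 to 0.20 for Sirt4, -0.29 to 0.22 for Sirt7 and -0.44 to 0.05 for Sirt6. In DOPA/HFS vs HFS, they were -0.18 to 0.17 for Sirt2, -0.11 to 0.40 for Sirt7, -0.42 to 0.07 for Sirt6, -0.15 to 0.02 for Sirt1 and -0.03 to 0.44 for Sirt5. In DOPA vs HFS, they were -0.09 to 0.07 for Sirt3, -0.13 to 0.16 for Sirt5, -0.22 to 0.07 for Sirt6 and -0.21 to 0.03 for Sirt1. In DOPA/HFS vs DOPA, they were -0.04 to 0.18 for Sirt4, -0.09 to 0.15 for Sirt1, -0.14 to 0.01 for Sirt3, -0.36 to 0.13 for Sirt6 and -0.04 to 0.42 for Sirt5. The count of all genes called in HFS vs 6-OHDA was 3 without the filter on dim probes and 1 with the filter on all 3 arrays of a group, and up to 2 as single arrays were left out. In DOPA vs 6-OHDA it was 0 without the filter, with the mean of all probes, with Hprt1 subtracted, with the block and at an adjusted p under 0.05, 2 with only the arrays compared, and 0 to 13 as single arrays were left out. In DOPA vs HFS it was 4 without the filter, 2 with the group filter or with normexp, 0 with Hprt1 subtracted or the block, 17 with only the arrays compared and 0 to 23 as single arrays were left out. DOPA/HFS vs HFS gave 3 without the filter, 1 with the group filter and up to 6 with single arrays left out, and DOPA/HFS vs 6-OHDA up to 3. With single arrays left out, the highest count came without DOPA 1 in HFS vs 6-OHDA and in DOPA/HFS vs DOPA (1 gene), and without DOPA/HFS 1 in the other comparisons of pairs of groups. The correlation with the oligodendrocyte level ran from 0.703 to 0.88 for Sirt2 and from -0.86 to -0.73 for Sirt7 as single arrays were left out, and was weaker with 75th percentile scaling (0.274 and -0.403) and, for Sirt7, in the deposited table (-0.667). 

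The replicate number marks the slide. Over 18 pairs of same-numbered arrays the correlation of their deviations from the group means ran from -0.287 to 0.476, and 10 pairs were over 0.1. The median was 0.112, against -0.0692 for arrays of other number and other group. Of 12 arrays, 5 correlated best with one of their own number. The main fit did not pair the samples by these numbers, and an effect of the slide is not excluded. When slides entered the fit as a replicate block, 0 sirtuins other than Sirt5 were called in any comparison and the Sirt5 differences stayed at -1.18, -1.17 and -0.93. The number of arrays is the limit on precision, and 3 arrays against 3 cannot give an exact permutation p below 0.1.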
